A study of Rattus norvegicus with 12 samples.

Results

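Untreated wild-type rat hepatic progenitor cells were compared with Tnfrsf1β-/- cells that had received TNFα. The comparison took in the genes with a mean FPKM (fragments per kilobase of transcript, scaled to library size) of at least 1 over the 4 libraries of these 2 groups, which gave 10151 of the 22384 gene lines of the table (45.3%). Of the 11860 lines with such a mean over all 12 libraries of the study 10074 were among them, and 77 of the 10151 had it only over these 4. At the limit, Gbp5, Hlx and Sgk1 were left out with mean FPKM of 0.9998, 0.9996 and 0.9992, and Fastkd1, Rreb1 and Dfna5 were kept with 1, 1 and 1.001.

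The study took HPCs (hepatic progenitor cells) from rats at day 13.5 of gestation and sequenced libraries made from their total RNA, in 6 groups of 2 libraries each. Untreated wild type is 1 of the groups compared here, and the other carries the label Tnfrsf1β-/- and had TNFα for 1 hour. The remaining 4 groups were wild type with TNFα for 1 hour, cells labelled Tnfrsf1α-/- with and without TNFα for 1 hour, and untreated Tnfrsf1β-/- cells. The labels do not say how the knockouts were made, whether from animals or clones, nor whether both libraries of a group had cultures of their own, so p-values measure the spread between libraries, which may be technical. Genotype and treatment change together in this comparison, so their parts in any difference cannot be told apart.

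TNFα is an inflammatory cytokine with a pair of receptors. TNFR1, the product of Tnfrsf1a, carries a death domain and recruits TRADD and RIPK1, whereas TNFR2, the product of Tnfrsf1b, lacks that domain and recruits TRAF2; both feed into NF-kB. The series title links TNFR2 with hnRNPK, an RNA-binding protein, and with YAP, a coactivator that works through TEAD transcription factors. Hepatic progenitor cells are the fetal liver cells from which hepatocytes and bile duct cells arise.

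All levels below are log2(FPKM + 1), and differences are treated Tnfrsf1β-/- minus untreated wild type with their standard error (SE). Tnfrsf1b stood at 2.58 and 2.43 in treated wild type. In the libraries labelled Tnfrsf1α-/- it was at 0 and 4.09 with TNFα and at 0.03 and 0 without. It was listed at 0 in both untreated wild-type libraries and in all 4 Tnfrsf1β-/- libraries. Its level therefore does not check the Tnfrsf1β-/- label in this comparison, and the genotype rests on the label. In the libraries labelled Tnfrsf1α-/- Tnfrsf1a stood at 5.65 to 6.13, no lower than in untreated wild type (5.45 and 5.15), so that genotype too is given by label only.

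The libraries of the 2 groups did not separate cleanly by group. The untreated wild-type replicates had 1220 of the 10151 genes over 1 log2 unit apart (Spearman's rho across genes 0.946), 1083 of them lower in replicate 2. Wild-type replicate 1 and treated Tnfrsf1β-/- replicate 1 had 242 genes that far apart (rho 0.979), fewer than either pair of replicates. The treated Tnfrsf1β-/- replicates had 374 (rho 0.965). The 2 treated libraries labelled Tnfrsf1α-/-, which enter only the estimate of the spread and the comparison with the other groups, differed in 3374 genes (rho 0.771). Summed FPKM was 1071530 and 1231671 in untreated wild type and 1076956 and 1176115 in treated Tnfrsf1β-/-, against 447554 to 2085916 in the other 8 libraries. The table holds no counts, so sequencing depth is unknown.

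The pair was picked because it lies close together, so its closeness is given as a description. The group means of 241 genes (2.37%) lay over 1 log2 unit apart, 94 higher and 147 lower in treated Tnfrsf1β-/-, and those of 8227 genes (81.0%) lay within 0.5. Among the 15 pairs of groups only the 2 untreated knockout groups lay closer, with 106 genes. The next pair, treated Tnfrsf1α-/- by label and untreated Tnfrsf1β-/-, had 2626. Untreated wild type and wild type with TNFα had 4315, and treated and untreated Tnfrsf1β-/- had 5733. The count of 241 became 721 without wild-type replicate 1 and 761 without treated Tnfrsf1β-/- replicate 1, both still below 2626. They are not quite like counts, as 721 and 761 set a single library against a mean of 2, and 2626 compares means of 2 libraries.

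**Figure D1:**
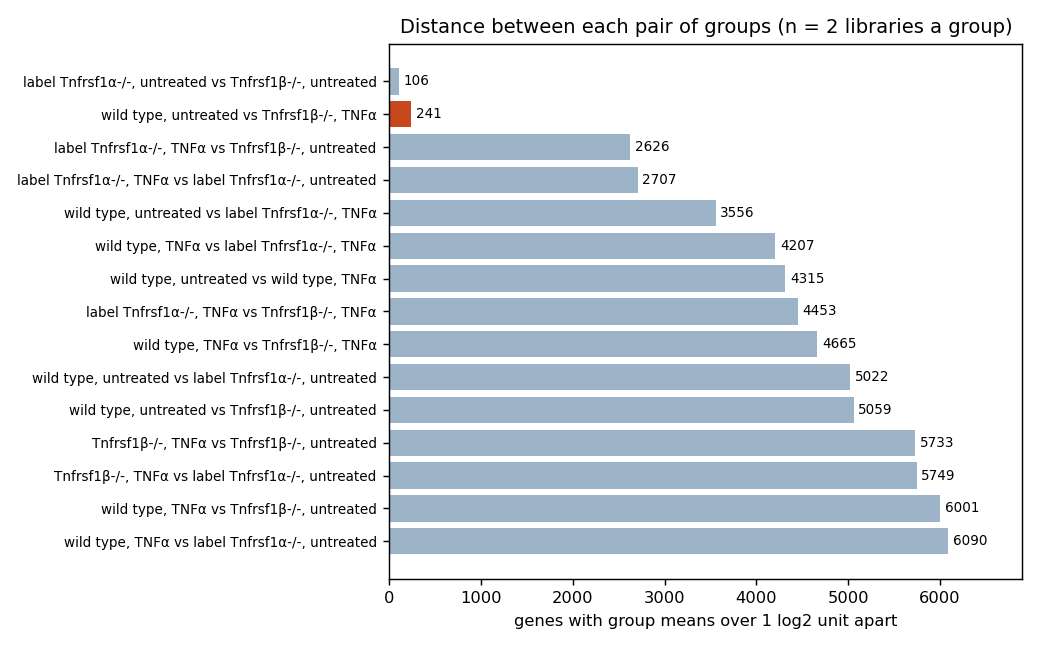
Number of the 10151 genes whose group means lie over 1 log2 unit apart, on the horizontal axis, for each of the 15 pairs of the 6 groups (n = 2 libraries a group; no error bars, as each bar is a count). Untreated wild type and treated Tnfrsf1β-/- (orange) had 241, and only the pair of untreated knockout groups had fewer (106).

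The labelled cell type was checked against markers. Krt7, a keratin of bile duct epithelium, was high at 13.80 and 13.50 in untreated wild type and 13.60 and 13.81 in treated Tnfrsf1β-/-. Krt8 stood at 8.57, 8.61, 8.62 and 8.02 in the same order, and Sox9, a transcription factor of hepatic progenitors, at 5.21, 5.78, 6.30 and 5.69. The 3 genes overlapped between the groups. Only 5 of the 20 progenitor and bile duct markers reached the expression filter, the other 2 being Ncam1 and Cdh1. Epcam, Krt19, Afp, Dlk1, Prom1 and Lgr5 were listed at 0 in all 4 libraries, and Krt18, the usual partner of Krt8, at 0, 0, 0 and 0.24. Of 24 hepatocyte genes 17 were listed at 0 in all 4, among them Alb, Ttr and Hnf4a, and the summed FPKM of that list was 14 to 24 per library. The mesenchymal list had 12 of 20 lines past the filter and summed to 6115 to 7806 FPKM. S100a4, Sparc and Vim were high in it, at 10.79 to 11.96, 9.79 to 10.69 and 8.93 to 10.73, while Thy1 was at 0 and Pdgfrb at 0.16 or less. The part of these markers in the results was not tested. Muscle and contractile genes, with 9 of 20 lines past the filter, summed to 4419 to 6390 FPKM. Endothelial markers summed to 52 to 88, macrophage and leukocyte markers to 29 to 35, with Ptprc at 0, and erythroid genes to 2 to 5. In bulk RNA fewer cells of a type and less RNA per cell cannot be told apart.

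What the 2 groups shared at a high level was a set of 142 genes (1.4%) at 10 or more in each of the 4 libraries. Among the gene lists, cytosolic ribosomal proteins made up the largest part of it. The set included 54 of the 93 cytosolic ribosomal protein lines (58.1%), 5 of 13 mitochondrially encoded genes (38.5%) and 5 of 19 translation factors (26.3%). It also included 4 of 17 glycolysis genes (23.5%) and 3 of 24 cell division genes (12.5%). Of 26 listed cytoskeleton genes 14 were in it (53.8%), but that list was drawn up from genes of high level, so its share was partly built in. In no list were 50 of the 142 genes, among them the mitotic kinesin Kif20a, so division genes outside the list were not counted. The set held 53.2% and 54.9% of all FPKM in untreated wild type and 52.6% and 55.9% in treated Tnfrsf1β-/-, against 20.6% to 27.5% in each of the other 8 libraries. The genes were chosen on the first 4 libraries, which by itself favours a larger share there, so these shares are a description. Because FPKM is scaled to library size, reads taken up by a few genes can lower the values of the rest. Summed FPKM is not fixed between libraries, and the part of this in the values here was not tested. Between the 2 groups 103 of the 142 (72.5%) lay within 0.5 log2 units and 8 over 1 unit apart.

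The gene of highest mean level was S100a6, a small calcium-binding protein, at 14.42 and 14.94 in untreated wild type and 15.09 and 15.42 in treated Tnfrsf1β-/-. Lmna, which encodes the nuclear lamins A and C, followed with 15.34, 15.11, 14.31 and 14.51. Tmsb4x, which binds monomeric actin, stood at 13.14, 13.89, 13.54 and 14.52. None of the 3 passed the test between the groups (limma adjusted p 0.842, 0.533 and 0.857), and Tmsb4x alone overlapped. In treated wild type Tmsb4x was at 0.51 and 0.46, and S100a6 at 4.55 and 4.80. Lgals1, the secreted lectin galectin-1, showed the same split, at 13.37, 13.69, 13.76 and 14.08 in the 4 libraries and at 7.77 and 8.08 in treated wild type. Stmn1, which binds tubulin dimers, matched closely at 12.81, 13.26, 12.79 and 13.22 (difference -0.03 ± 0.27 SE, adjusted p 0.992).

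**Figure D2:**
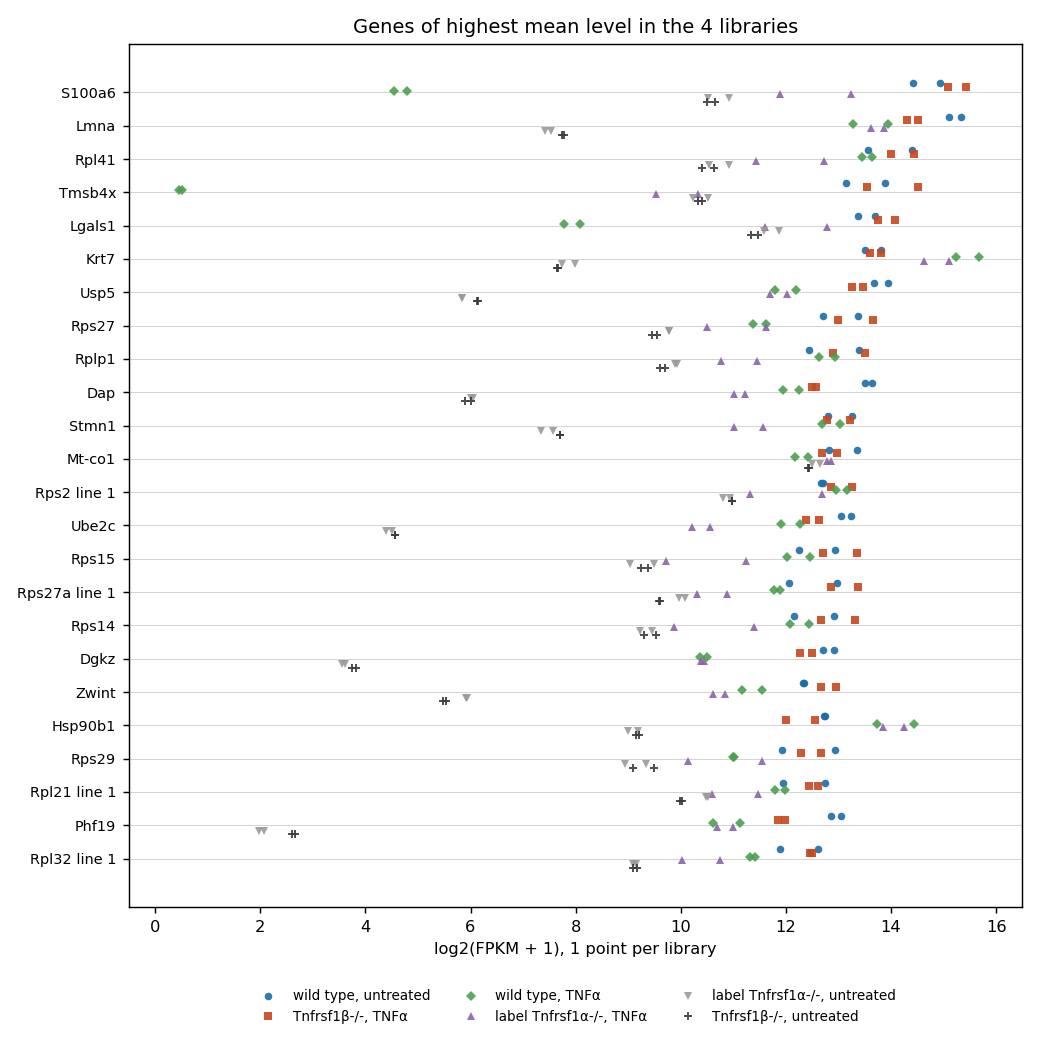
Level of 24 of the 25 genes of highest mean over the 4 libraries, with log2(FPKM + 1) on the horizontal axis and 1 point per library in all 6 groups; no error bars are drawn. Untreated wild type (blue circles) and treated Tnfrsf1β-/- (orange squares) reach farthest right in the rows other than Krt7 and Hsp90b1, where treated libraries of the other genotypes do. The 4 untreated knockout libraries (grey and black) lie to the left of both groups in all 24 rows, closest in that of Mt-co1.

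The 25 highest genes took 24.2% and 24.0% of FPKM in untreated wild type and 21.8% and 25.3% in treated Tnfrsf1β-/-, and 4.73% to 9.57% elsewhere, a gap that ranking the genes on these 4 libraries favours in the same way. Of the 142 genes 108 were also at 10 or more in both treated wild-type libraries, 64 in both treated Tnfrsf1α-/- libraries by label, 28 in both untreated Tnfrsf1α-/- libraries by label and 22 in both untreated Tnfrsf1β-/- libraries. In all 12 libraries 13 genes were that high, among them Gapdh, Actb, Eef1a1 and Mt-co1. In the other direction, 11 genes were under 10 in each of the other 8 libraries. They included Fam25a, Rpl36a, Myl6, Rps3a, Rpl37a, a second line of Rps27a, Sec61g, Myl12a, Ppial4d and Dynll1, listed after their values were seen.

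Set against the other 4 groups, the 2 groups together differed in 6979 of the 10151 genes (68.8%), 2211 higher (21.8%) and 4768 lower (47%; limma, adjusted p under 0.05). The genes were filtered on the 4 libraries, so those that passed only through them had to be higher. The split depends on scaling: 31.7% of the calls were higher on the deposited values, 58.4% once libraries were scaled by median ratios and 56.0% on quantile-normalized values, and the median difference of all genes went from -0.46 to 0.12 and 0.07. Cytosolic ribosomal proteins were higher in 88 of 93 lines with none lower (median 1.67 for the 2 groups minus the other 4). Cytoskeleton genes were higher in 19 of 26 with 1 lower (median 1.28 on the same footing). The cytoskeleton list was drawn up from genes of high level, so its count is a description. For the ribosomal list the other 4 groups were unlike each other. Over its 102 lines the median level was 10.18 and 10.94 in untreated wild type and 10.54 and 10.58 in treated Tnfrsf1β-/-. It was nearly as high in treated wild type, at 10.1 and 10.15. The treated libraries labelled Tnfrsf1α-/- had 8.96 and 9.78, and the untreated knockouts 8.4 to 8.71.

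Dmd, which encodes dystrophin, stood at 9.10 and 9.19 in untreated wild type, 8.95 and 8.40 in treated Tnfrsf1β-/- and no more than 2.86 elsewhere (7.37 ± 0.31 SE for the 2 groups minus the other 4). Tbxa2r, the thromboxane A2 receptor, was at 8.56, 8.29, 8.12 and 8.29 and no more than 3.95 elsewhere. Sox17, a transcription factor of endoderm and biliary development, stood at 8.32, 8.56, 8.55 and 8.39 and no higher than 5.46 elsewhere. Dmd, Tbxa2r and Tnnt2 were among the 4 genes over 3 log2 units above each of the other 8 libraries in all 4, and 89 genes were so by over 1 unit. Wnt5a, a Wnt ligand, was at 8.61, 8.53, 8.99 and 8.68 and at 6.28 or less elsewhere. At the low end, Asph, an aspartyl hydroxylase of the endoplasmic reticulum, was at 1.51, 1.43, 1.45 and 1.11, at 13.32 to 14.24 in the other treated libraries and at 2.31 to 2.99 in the untreated knockouts. Nars2, the mitochondrial asparaginyl-tRNA synthetase, followed the same course at 1.47, 0.85, 1.13 and 1.17 against 12.15 to 12.90 and 2.10 to 2.29. There were 49 genes over 1 unit below all other 8 libraries and none over 3 units below.

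Between the 2 groups themselves 38 genes passed the test (0.374%; limma adjusted p under 0.05), 7 higher (0.069%) and 31 lower (0.305%) in treated Tnfrsf1β-/-. At an unadjusted p under 0.05 there were 653 genes (6.43%). The 2 groups did not overlap in any of the 38, as in 3239 of all genes (31.9%; 9.06% higher and 22.8% lower without overlap). In 5 of the 38 a group was listed at 0; among the rest the falls had a median of -1.69, with -1.27 the smallest, and the rises ran from 1.34 to 4.77. The count rested on which libraries were fitted. It was 64 (20 higher) in a fit of the 4 libraries alone, 99 (32 higher) without both treated libraries labelled Tnfrsf1α-/- and 100 without either of them, 89 (58 higher) without wild-type replicate 1, 22 without wild-type replicate 2, 22 without treated Tnfrsf1β-/- replicate 2 and 20 without any 1 of the 4 untreated knockout libraries. Of all calls 18.4% were higher as deposited and 36.4% after median-ratio scaling, which left 22 calls and moved the median difference of all genes from -0.11 to 0.09.

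Among the genes called in each of the 21 alternative fits were Abba1, Akap12, Ank1, Ceacam19, Itpr1, Macf1, Moxd1 and Nbeal1. No call was reversed in any of them. Of the other genes described below, Nfe2l3, Ankrd2, Kif20a, Pard3, Pkp4, Igf2bp2 and Ext1 were called in 20 of the 21, Cnn3 and Larp7 in 19, Cap2 in 18, Cenpe in 17 and Inhba in 15. Alcam, Cetn3, Epb41l2 and Gnptab were called in 13, Akap13, Ankrd1, Top2a, Met, Cdh2 and Rrbp1 in 12, Prkd1 in 11, Pappa in 10, Ugcg and Cdk12 in 9, Alpk2 in 8 and Rn60_15_0618.1 in 5. Inhba and the genes called in 13 or fewer were lost without any 1 of the untreated knockout libraries.

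**Figure D3:**
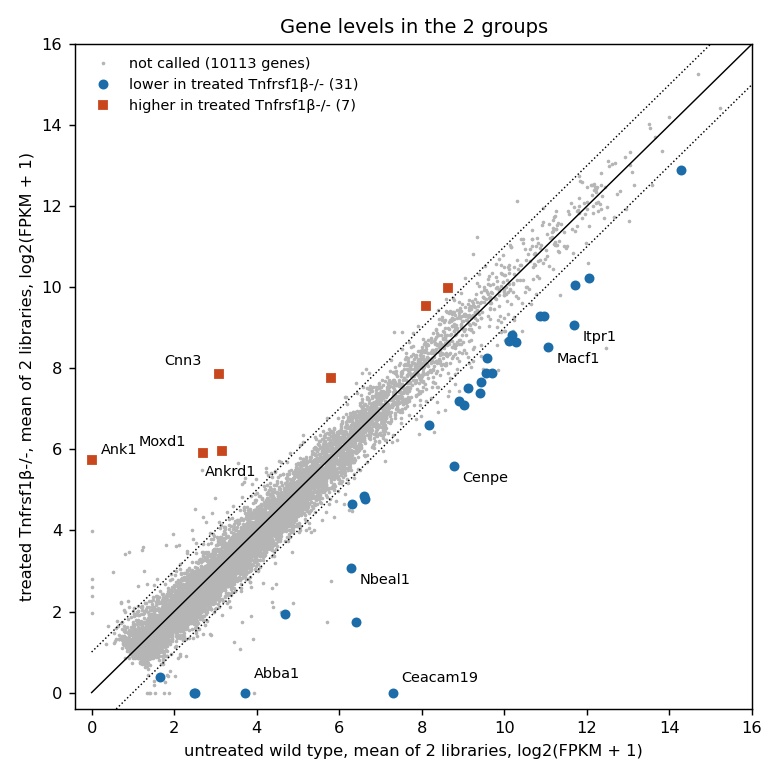
Mean log2(FPKM + 1) of the 10151 genes in untreated wild type (horizontal) and treated Tnfrsf1β-/- (vertical), each the mean of 2 libraries, with no error bars. The solid line marks equal levels and the dotted lines 1 unit either way; most genes lie between the dotted lines, and the 31 lower (blue) and 7 higher (orange) genes that passed the test lie outside.

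Among the genes that were lower, Ceacam19, a member of the carcinoembryonic antigen adhesion family, stood at 7.19 and 7.39 in untreated wild type and was listed at 0 in both treated Tnfrsf1β-/- libraries (adjusted p 1.06e-05). It was at 7.19 to 9.34 in the other treated libraries and at 0.11 or less in all 4 untreated knockouts. Abba1 was at 3.78 and 3.66 in untreated wild type, listed at 0 in treated Tnfrsf1β-/- and at 6.55 to 10.78 in the other treated libraries (adjusted p 0.00383). Unlike Ceacam19, it was at 1.66 to 2.05 in the untreated knockouts, above treated Tnfrsf1β-/-.

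Cenpe and Top2a act in cell division. Cenpe, the kinesin that tethers kinetochores to microtubules, fell from 8.32 and 9.22 to 5.26 and 5.91 (-3.19 ± 0.41 SE, adjusted p 0.0116). Top2a, the topoisomerase that untangles replicated DNA, fell from 11.90 and 12.18 to 10.36 and 10.07 (-1.82 ± 0.27 SE, adjusted p 0.0254). It was 1 of 24 listed cell division genes to pass, and the list's median difference was -0.11, beside -0.11 for all genes. The proliferation marker Mki67 stood at 3.84, 3.58, 4.14 and 3.85, and Rrm1, the large subunit of ribonucleotide reductase, at 11.69, 11.92, 13.01 and 12.49 (adjusted p 0.317). Macf1, a giant linker of microtubules and actin, was level at 11.05 in both wild-type libraries and at 8.66 and 8.40 in treated Tnfrsf1β-/- (-2.52 ± 0.23 SE, adjusted p 0.00179).

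Itpr1, the inositol trisphosphate receptor that releases calcium from the endoplasmic reticulum, fell from 11.67 and 11.70 to 9.34 and 8.81 (-2.61 ± 0.23 SE, adjusted p 0.00179). Nbeal1, a protein of the BEACH family, went from 6.57 and 5.98 to 3.24 and 2.90 (-3.21 ± 0.32 SE, adjusted p 0.00354). Akap12 and Akap13 are scaffolds that anchor protein kinase A. Akap12 went from 6.56 and 6.71 to 4.81 and 4.75, and Akap13 from 9.60 and 9.81 to 8.03 and 7.75 (adjusted p 0.00765 and 0.0208). Alcam, an adhesion molecule of the immunoglobulin family, went from 9.38 and 9.43 to 7.63 and 7.14, and Larp7, which binds the 7SK RNA, from 8.80 and 9.26 to 6.90 and 7.30 (adjusted p 0.0185 and 0.0104). In these 6 genes each treated Tnfrsf1β-/- library lay below each wild-type library by over 1 unit.

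Inhba and Pappa encode secreted proteins. Inhba, the subunit of activin A, was at 2.88 and 2.11 in untreated wild type and listed at 0 in treated Tnfrsf1β-/- (adjusted p 0.0173). It was at 4.11 to 7.68 in the other treated libraries and at 0.80 to 1.31 in the untreated knockouts. It was the 1 of 20 TGF-beta and IGF pathway genes to pass; the list's median difference was 0.03. Pappa, the protease that cleaves IGF-binding proteins, went from 5.44 and 3.92 to 1.83 and 2.08 (-2.72 ± 0.44 SE, adjusted p 0.0394). Ankrd2, an ankyrin-repeat protein of striated muscle, was at 2.65 and 2.36 in untreated wild type and listed at 0 in treated Tnfrsf1β-/- and in all 4 untreated knockouts (adjusted p 0.00819).

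Kif20a and Top2a were among the 3 genes of the high-level set to pass, all lower in treated Tnfrsf1β-/-. Kif20a, a mitotic kinesin, stood at 11.71 and 11.70 against 10.03 and 10.07 (adjusted p 0.00819). Kif20a and the other 14 lower genes named next were picked out after their values were seen. They were Alpk2, Pard3, Gnptab, Rrbp1, Prkd1, Pkp4, Cdk12, Cap2, Met, Igf2bp2, Ext1, Epb41l2, Cdh2 and the unnamed line Rn60_15_0618.1, with differences of -1.27 to -1.78. Among them Met, the receptor of hepatocyte growth factor, was at 10.85 and 10.88 against 9.56 and 9.0, and Cdh2, N-cadherin, at 9.44 and 9.69 against 8.23 and 8.28.

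Over the 31 lower genes the median level was 9.11 in untreated wild type and 7.39 in treated Tnfrsf1β-/-. It was 10.07 in treated wild type, 10.18 in treated Tnfrsf1α-/- by label, and 3.95 and 3.94 in untreated Tnfrsf1α-/- by label and Tnfrsf1β-/-. All genes had medians of 3.42, 3.26, 3.81, 3.90, 3.99 and 3.99 in the same order. The comparisons behind these levels share libraries, and the genes were chosen on the first pair of values. With the same limits, both treated wild-type libraries lay above both untreated ones in 26 of the 31, beside 46.7% of all genes. They lay below them in 4, among which were Itpr1, at 7.75 and 7.32 in treated wild type, and Kif20a, at 11.05 and 11.14.

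Among the 7 genes that were higher, Ank1, the ankyrin that ties the membrane to the spectrin skeleton, was listed at 0 in both untreated wild-type libraries and at 5.65 and 5.83 in treated Tnfrsf1β-/- (adjusted p 1.79e-06). It was at 8.05 to 8.69 in the other treated libraries and at 0 to 0.03 in the untreated knockouts. Moxd1, a copper monooxygenase related to dopamine beta-hydroxylase, rose from 2.65 and 2.77 to 5.85 and 5.96 (3.20 ± 0.20 SE, adjusted p 0.000125). It was at 6.36 to 8.29 in the other treated libraries and listed at 0 in the 4 untreated knockouts. Cnn3, an actin-binding calponin, rose from 3.40 and 2.77 to 8.54 and 7.16 (4.77 ± 0.60 SE, adjusted p 0.0109). Unlike the others it was also high in the untreated knockouts, at 8.92 to 9.48, and at 5.40 and 5.32 in treated wild type.

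Ankrd1, a muscle ankyrin-repeat protein and a standard YAP target, stood at 3.98 and 2.36 in untreated wild type and at 5.81 and 6.10 in treated Tnfrsf1β-/- (2.78 ± 0.42 SE, adjusted p 0.0264). In treated wild type it was at 11.04 in both libraries, in treated Tnfrsf1α-/- by label at 13.37 and 13.45, and in the untreated knockouts at 1.62 to 2.69. Nfe2l3, a CNC-family transcription factor, rose from 5.81 and 5.82 to 8.07 and 7.45 on the first of its lines in the table (1.95 ± 0.25 SE, adjusted p 0.0116). Ugcg, the glucosylceramide synthase, rose from 8.04 and 8.15 to 9.69 and 9.37 (1.44 ± 0.23 SE, adjusted p 0.0331). Cetn3, a centriole protein, was at 8.64 in both wild-type libraries and rose to 9.99 and 9.97 (1.34 ± 0.18 SE, adjusted p 0.0156).

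Of these 7 genes 6, all but Cnn3, were higher in all 6 treated libraries of the study than in all 6 untreated ones, a pattern seen in 57 of the 10151 genes (0.562%). By a gap of over 1 unit it was seen in 6 genes: Ank1, Ankrd1, Cetn3, Moxd1, Nfe2l3 and Stra6. Stra6, the receptor for retinol-binding protein, stood at 3.66 and 3.75 in untreated wild type and 4.90 and 5.50 in treated Tnfrsf1β-/-, and missed the threshold (1.49 ± 0.29 SE, adjusted p 0.101). It was at 11.28 and 11.32 in treated wild type. The reverse, all treated below all untreated, was seen in 27 genes, of which none passed the test here. By genotype, all 4 Tnfrsf1β-/- libraries lay below the other 8 in 54 genes (0.532%) and above them in 12 (0.118%), of which 1 and none passed. These counts include the 4 libraries of the comparison and are a description. The treatment pattern requires a gene to be higher without overlap in this comparison, as the 7 called genes and 920 of all genes (9.06%) were. The 0.562% is therefore not a like baseline for them.

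**Figure D4:**
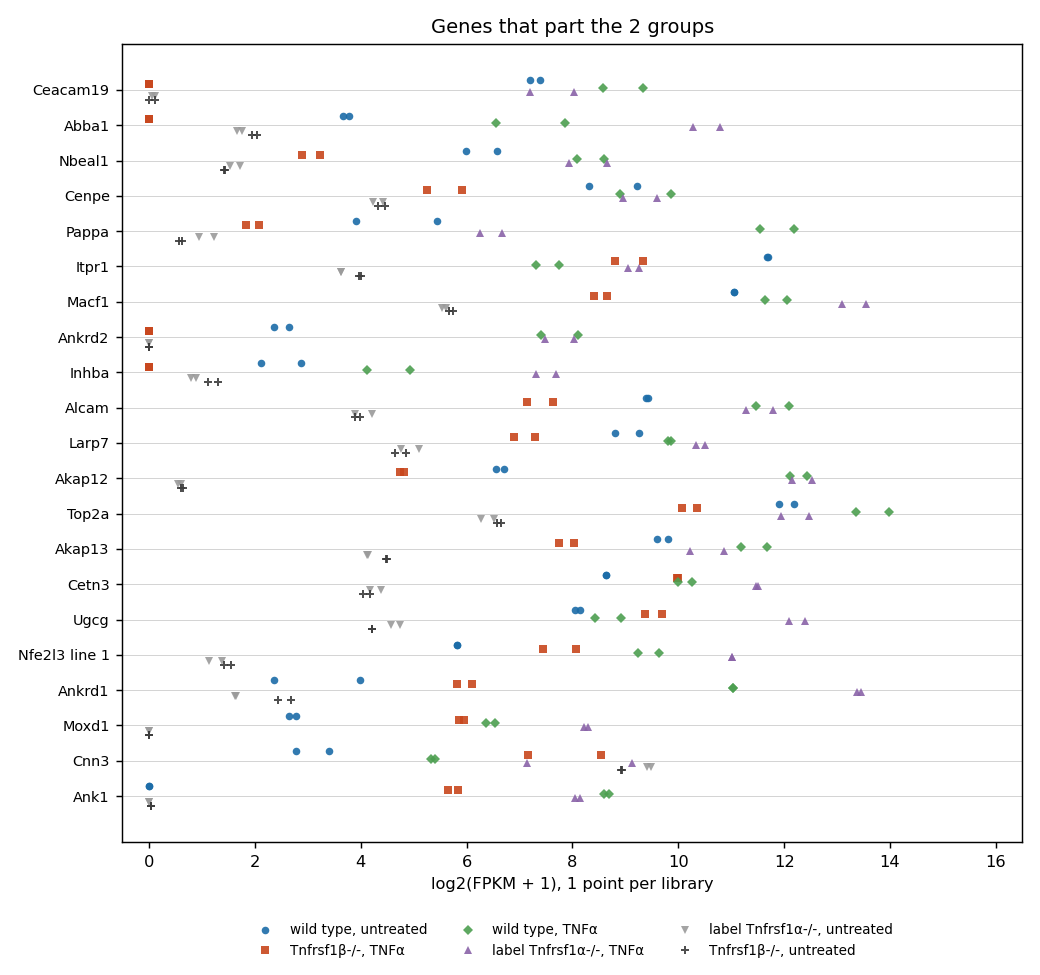
Level of 14 of the 15 genes with the largest falls and of the 7 with rises among those that passed the test, as log2(FPKM + 1) on the horizontal axis with 1 point per library in all 6 groups and no error bars. Untreated wild type (blue circles) and treated Tnfrsf1β-/- (orange squares) do not overlap in any row, and in 6 of the 7 lowest rows (all but Cnn3) the treated libraries of each genotype lie to the right of the untreated ones.

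Promoter sequences are shown for 3 of the 7 higher genes, since these rose together and the fourth with an entry, Cnn3, did not follow treatment across the groups. They are the 250 bases before the RefSeq start in the rat build GRCr8, which is not known to be the build of the table, 5′ to 3′ on the strand of the gene. Capitals mark the CCAAT box (CCAAT) or the TEAD core motif (GGAATG) on either strand; no sites overlap. Cetn3 lies on the plus strand at chr2:13824841-13825090, Moxd1 on the minus strand at chr1:22981060-22981309 and Nfe2l3 on the plus strand at chr4:81837154-81837403.
Cetn3: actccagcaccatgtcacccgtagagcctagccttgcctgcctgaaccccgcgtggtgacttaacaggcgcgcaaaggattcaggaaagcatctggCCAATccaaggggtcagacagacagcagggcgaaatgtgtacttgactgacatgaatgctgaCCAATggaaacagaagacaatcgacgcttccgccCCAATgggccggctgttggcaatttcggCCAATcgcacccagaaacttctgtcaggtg
Moxd1: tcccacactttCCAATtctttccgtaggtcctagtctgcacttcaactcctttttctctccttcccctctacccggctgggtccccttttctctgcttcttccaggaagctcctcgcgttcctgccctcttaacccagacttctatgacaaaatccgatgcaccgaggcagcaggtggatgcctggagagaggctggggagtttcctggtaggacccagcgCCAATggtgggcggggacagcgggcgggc
Nfe2l3: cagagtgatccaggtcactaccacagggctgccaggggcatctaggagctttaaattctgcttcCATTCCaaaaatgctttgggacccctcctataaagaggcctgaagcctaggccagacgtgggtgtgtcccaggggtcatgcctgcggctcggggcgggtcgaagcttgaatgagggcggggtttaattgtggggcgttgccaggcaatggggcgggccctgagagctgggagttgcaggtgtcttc

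The Cetn3 window holds 4 CCAAT boxes and the Moxd1 window 2, and neither holds the TEAD core. The Nfe2l3 window holds 1 TEAD core and no CCAAT. Of the 38 called genes 28 had an entry. CCAAT occurred in 3 of the 4 higher and 11 of the 24 lower, and in 34% of all 33465 promoters of the same length. The TEAD core occurred in 1 of the 4 and in 4 of the 24 (Alpk2, Macf1, Nbeal1 and Prkd1), and in 12.1% of all. The AP-1 motif TGACTCA (4.05% of all) was in none of the 28.

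Tnfrsf1b, at 0 in all 4 libraries, was not tested, and Tnfrsf1a, Yap1, Wwtr1 and Hnrnpk did not pass the test. Tnfrsf1a was at 5.45 and 5.15 in untreated wild type and 4.85 and 4.71 in treated Tnfrsf1β-/- (-0.52 ± 0.20 SE, adjusted p 0.721). Yap1 was at 4.78, 2.30, 4.38 and 3.58, Wwtr1, which encodes the YAP paralogue TAZ, at 4.61, 4.13, 4.33 and 3.90, and Hnrnpk at 7.24, 6.55, 6.80 and 6.34 (adjusted p 0.95, 0.909 and 0.963). These 3 overlapped, with the wild-type replicates of Yap1 farther apart than the groups.

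Of 19 YAP and TAZ targets Ankrd1 alone passed, beside 0.374% of all genes, and the median difference was -0.28, beside -0.11 for all genes. Ctgf, a secreted matrix protein and YAP target, stood at 8.08, 7.63, 7.67 and 6.96 (-0.54 ± 0.28 SE, adjusted p 0.783). Cyr61, its close relative, was listed at 0 in wild-type replicate 1 and in both treated Tnfrsf1β-/- libraries but at 7.85 in wild-type replicate 2, so 1 library carries its difference. Tgfb2, a TGF-beta ligand, was at 5.75 and 5.82 in wild type and at 5.49 and 0 in treated Tnfrsf1β-/-. Axl, a receptor tyrosine kinase, was at 7.07, 6.21, 6.71 and 6.41, against 11.97 to 12.85 in the other treated libraries.

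No gene of TNF receptor signalling (16 tested), NF-kB subunits, feedback and adhesion (17), chemokines and cytokines (13) or immediate early genes (18) passed. With 0.374% of all genes called, lists of this size would hold under 1 call each at that share, so the counts say nothing particular of these lists. Their median differences were -0.07, -0.02, -0.28 and -0.18. Nfkbia, the NF-kB inhibitor that NF-kB itself induces, stood at 5.07, 4.74, 4.94 and 5.26, and Tnfaip3, the A20 feedback protein, at 2.42, 1.01, 1.96 and 1.37. Both overlapped between the groups (adjusted p 0.976 and 0.992). Cflar, the inhibitor of caspase-8, was at 8.78 and 8.66 against 9.30 and 9.49 (0.67 ± 0.20 SE, adjusted p 0.486). Ccl2, a monocyte chemokine, was at 10.36, 9.95, 9.88 and 9.30, and Egr1, an immediate early transcription factor, at 9.19 and 9.30 against 8.26 and 8.13 (-1.05 ± 0.25 SE, adjusted p 0.247). Egr1 passed without the treated libraries labelled Tnfrsf1α-/-, either or both. Fos was below the filter, at 0.33, 0.16, 0.51 and 0.

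The mitochondrially encoded genes had the lowest median difference among the 28 lists, -1.16, and 11 of 13 were lower without overlap, beside 22.8% of all genes. None of the 13 passed, and genes of a list can move together, so the 11 are not separate observations. The 13 genes held 4.58% and 2.72% of FPKM in untreated wild type and 2.17% and 1.56% in treated Tnfrsf1β-/-. Mt-atp6, a subunit of ATP synthase, was at 12.70 and 12.24 against 8.92 and 8.09 (-3.96 ± 0.76 SE, adjusted p 0.0858), and at 9.58 and 11.64 in the treated wild-type replicates. Mt-nd2, of complex I, was at 10.76 and 10.09 against 9.24 and 8.60 (adjusted p 0.0765), whereas Mt-co1, of complex IV, overlapped at 13.35, 12.82, 12.97 and 12.68. Mt-atp6 and Mt-nd2 passed in the fit of the 4 libraries alone, and with Mt-cox3 without the treated libraries labelled Tnfrsf1α-/-, either or both; Mt-cox3 also passed without treated Tnfrsf1β-/- replicate 1.

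Other lists held few or no calls, beside 0.374% of all genes called and 22.8% lower without overlap. Cytosolic ribosomal proteins had a median difference of 0.15 with none of 93 past the threshold, and 16.1% and 22.6% of FPKM in untreated wild type against 21.1% and 23.7% in treated Tnfrsf1β-/-. The share in wild-type replicate 1 was thus the lowest of the 4. None passed among 19 unfolded protein and ATF4 stress genes (median -0.44, 11 lower without overlap), 15 heat shock lines (-0.44, 7), 21 cholesterol synthesis genes (-0.32, 10) or 20 hnRNP and splicing lines (-0.33, 1). Interferon and antigen presentation genes had 22 tested and none past, with the interferon regulatory factor Irf7 at 7.62 and 7.01 against 8.95 and 8.85 (1.58 ± 0.40 SE, adjusted p 0.307). Irf7 passed in the fit of the 4 libraries alone and without the treated libraries labelled Tnfrsf1α-/-, either or both. Of the 12 mesenchymal marker lines none passed, but their median of -0.48 was the lowest after that of the mitochondrially encoded genes. Of these lines 7 were lower and 2 higher without overlap. Vim, the intermediate filament vimentin, was at 10.57, 10.73, 10.23 and 8.93. Dcn, the proteoglycan decorin, was at 5.70 and 6.77 against 5.23 and 3.80 (limma adjusted p 0.607 for Vim and 0.405 for Dcn).

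**Figure D5:**
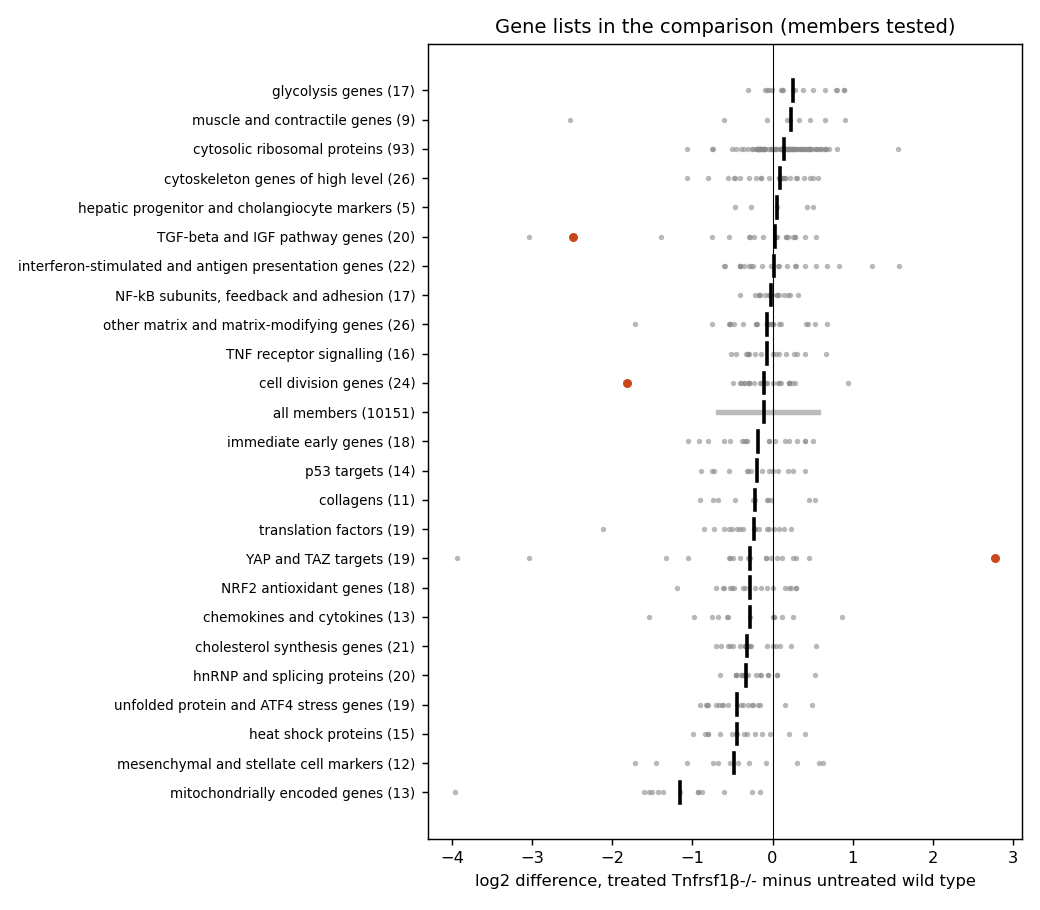
Log2 difference between treated Tnfrsf1β-/- and untreated wild type (horizontal axis) for each tested gene of the lists with at least 5 tested members, 1 point a gene, with the list's median as a black bar and the number tested in parentheses; orange points passed the test. The grey band for all 10151 genes spans their 5th to 95th percentile, and the mitochondrially encoded genes have the lowest median (-1.16).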

How the data were processed

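RNA of rat hepatic progenitor cells was extracted with Trizol and made into Illumina TruSeq libraries, per the labels' protocols. The authors deposited 1 table for the 12 libraries, whose FPKM stand on a log2 scale. That this is log2(FPKM + 1) was inferred from range and sums. The aligner, counting, build and between-library scaling: not given in the sources used here. Lines without a symbol (346) held no values, and lines sharing a symbol (268 of those tested) were kept apart, so genes are lines and paralogues are uncertain. No counts were given, so depth is unknown. For each gene past a mean of 1 FPKM in the 4 libraries, limma 3.58.1 (R 4.3.3) fitted 6 group means to all 12 libraries on the log2 scale with a pseudocount of 1, which understates changes of low genes, and an intensity trend. P-values are two-sided with Benjamini-Hochberg adjustment over the 10151 genes, threshold 0.05. The fit was tested on simulated data with independent noise for each gene. That noise held no shift shared across a library, so the test does not show how calls behave under such shifts.

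The text names the receptor genes, Hnrnpk, Yap1 and Wwtr1, the 25 of highest level, the 15 largest changes each way among called genes without overlap, the 10 highest and 10 lowest against the other groups, and up to 3 per list by p and by level, of which some are not reported here; Actb, Akr1c3, Axl, Ctgf, Cyr61, Mki67, Nfkbia, Stra6, Tnfaip3 and Tnnt2, with those so marked in the text, fall outside it and were picked with their values in view. The members and the 28 gene lists were chosen with earlier results of these data known. Motifs were searched in RefSeq promoters of GRCr8. Replicate numbers name libraries only and were not taken as pairs. Alternatives changed the libraries fitted, the scaling, the pseudocount, the filter, the trend and the block.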

Additional observations from a re-analysis of the deposited data

How the results depend on the processing

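The 38 calls became 64 in a fit of the 4 libraries alone (33 of the 38 kept), 99 without both treated libraries labelled Tnfrsf1α-/- (38 kept), 22 after median-ratio scaling (21 kept), 31 after quantile normalization, 39 with a pseudocount of 0.1, 42 without a filter and 37 with the filter over all 12 libraries. Leaving out 1 library gave 20 to 100. With the replicate number as a block, 37 genes were called, the 38 without Rn60_15_0618.1; the numbers are not known to pair samples (correlation of the deviations of the 2 groups 0.162, from 2 pairs), and among the genes named here the block changed no other call in this comparison; against the other 4 groups it gave 7088. The 6979 calls against the other 4 groups ran from 5977 to 8134 with 1 library left out. The 241 genes over 1 log2 unit apart became 462 with a pseudocount of 0.1 and 222 to 761 with 1 library left out. The 142 high-level genes became 143 to 160 with 1 of the 4 libraries left out. Of 4512 values of named genes under alternatives 4272 kept their side of the threshold, 195 lost the call and 45 gained one. None reversed among values called in the main or the alternative fit. Direction was not counted for values called in neither. The cause of these changes was not tested. With 1 library left out, the other of its group was assumed to vary like the rest. Limits: 2 libraries a group, an unknown depth and unlike wild-type replicates bound what the test can show, and a value of 0 can be a failed estimate.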

Other observations

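Members listed at 0 in both libraries of 1 group numbered 18, of which 12 were at 0 in treated Tnfrsf1β-/- and 6 in untreated wild type; these and the genes named here were picked out after their values were seen. Among the 12, Nrcam, a neuronal adhesion molecule, was at 0 and 2.77 in untreated wild type and at 13.26 and 12.69 in treated wild type. Ccl20, a chemokine, was at 0 and 3.08 in untreated wild type, so 1 wild-type library alone separated it from the treated Tnfrsf1β-/- libraries. Among the 6, Tspan2, a tetraspanin, was at 3.95 and 1.63 in treated Tnfrsf1β-/- and at 6.79 and 6.03 in treated wild type. St3gal6, a sialyltransferase, was at 2.13 and 3.09 in treated Tnfrsf1β-/- and at 5.93 and 4.97 in treated wild type. Both genes were also present in the untreated knockouts, Tspan2 at 2.97 to 3.58 and St3gal6 at 1.91 to 2.82.

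Akr1c3, an aldo-keto reductase, was the 1 gene of the high-level set over 1 unit higher in treated Tnfrsf1β-/-, at 10.83 and 11.04 in untreated wild type and at 11.83 and 12.09 (difference 1.03 ± 0.20 SE, limma adjusted p 0.109). It stood at 16.25 and 16.61 in treated wild type and at 0.09 or less in the untreated knockouts, and it has close relatives among which the counting, which is not given, could split reads. Dap, a death-associated protein, was at 13.64 and 13.50 against 12.49 and 12.57 (-1.04 ± 0.19 SE, adjusted p 0.0671) and passed without the treated libraries labelled Tnfrsf1α-/-, either or both.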
